A study of Homo sapiens with 72 samples.

Results

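The genes described here are the expressed ZNF genes, whose symbol is ZNF and a number. They were chosen by symbol and by expression: a gene entered with a base mean, the average of normalised reads over a table's libraries, of at least 200 in the authors' deposited table of arsenite-treated against untreated knockout cells. The rule took 199 of 532 ZNF genes, among 61541 genes in the table. The series deals with G3BP1, an RNA-binding protein that nucleates stress granules. U2OS cells, a human osteosarcoma line, gave 2 RNA-seq experiments with 2 libraries per group. The first held wild-type (WT) cells, cells lacking G3BP1 and G3BP2 (KO), and KO cells given a G3BP1 transgene by Lipofectamine for 24 h. The second held KO cells and KO cells 24 h after transfection of WT G3BP1 (WT-rescue) or of G3BP1 without its NTF2 domain (NTF2-rescue), the part through which G3BP1 pairs with itself and with partners. Each came without stress and with 200 uM sodium arsenite, which causes oxidative stress and halts translation, for 2 h. RNA immunoprecipitation (RIP-seq) used Flp-In T-REx 293 cells, an embryonic kidney line, with stable FLAG-G3BP1 induced by 1 ug/mL tetracycline for 24 h, in 3 immunoprecipitated (IP) and 3 input libraries. KO cells were not transfected, so effects of transfection and of G3BP1 cannot be told apart where rescue and KO are compared. Whether the KO line is 1 clone, and whether libraries came from separate cultures, is not given in the sources used here, so p-values measure the spread between these libraries, which may be technical.

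Most ZNF genes encode proteins with C2H2 zinc fingers, small loops held by a zinc ion that read short stretches of DNA. Many also carry a KRAB domain, which recruits the corepressor TRIM28 and, through it, the histone methyltransferase SETDB1, a route known for silencing transposable elements. ZNF genes lie in tandem clusters of related copies. A minority of the proteins act elsewhere, in ribosome quality control, RNA processing or SUMO ligation.

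Promoters are shown for genes that the arsenite comparisons turn on, and for ZNF300, whose level differs most between WT and KO cells. RefSeq (GRCh38.p14) held a promoter of 300 bases, 250 before and 50 after the annotated start, for 170 of the 199 genes. ZNF432, ZNF12 and ZNF131 rose with arsenite in both rescues, and ZNF548 had the largest arsenite fold change in KO cells, the contrast that chose the genes. ZNF300 also rose in both rescues. Capitals mark CCGGAAG or its reverse complement, the core bound by ETS family factors.
ZNF432, chr19:52048789-52049088, minus strand: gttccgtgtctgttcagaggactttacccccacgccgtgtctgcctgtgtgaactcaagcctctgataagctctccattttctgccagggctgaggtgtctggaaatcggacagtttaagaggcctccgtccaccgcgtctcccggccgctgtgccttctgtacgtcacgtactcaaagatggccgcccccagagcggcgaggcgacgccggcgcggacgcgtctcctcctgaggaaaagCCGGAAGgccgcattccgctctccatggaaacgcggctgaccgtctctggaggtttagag
ZNF12, chr7:6706898-6707197, minus strand: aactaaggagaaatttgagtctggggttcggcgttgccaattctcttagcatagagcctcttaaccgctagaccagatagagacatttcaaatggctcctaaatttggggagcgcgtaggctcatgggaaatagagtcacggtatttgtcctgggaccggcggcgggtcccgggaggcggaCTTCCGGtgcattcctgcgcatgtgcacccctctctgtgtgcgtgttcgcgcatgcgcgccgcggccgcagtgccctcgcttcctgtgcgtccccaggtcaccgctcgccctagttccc
ZNF131, chr5:43121211-43121510, plus strand: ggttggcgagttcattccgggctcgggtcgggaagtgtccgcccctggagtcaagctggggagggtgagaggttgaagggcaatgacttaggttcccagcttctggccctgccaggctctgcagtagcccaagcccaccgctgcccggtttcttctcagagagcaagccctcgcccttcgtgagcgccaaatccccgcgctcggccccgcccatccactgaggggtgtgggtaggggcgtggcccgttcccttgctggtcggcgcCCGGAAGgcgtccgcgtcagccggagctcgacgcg
ZNF548, chr19:57389604-57389903, plus strand: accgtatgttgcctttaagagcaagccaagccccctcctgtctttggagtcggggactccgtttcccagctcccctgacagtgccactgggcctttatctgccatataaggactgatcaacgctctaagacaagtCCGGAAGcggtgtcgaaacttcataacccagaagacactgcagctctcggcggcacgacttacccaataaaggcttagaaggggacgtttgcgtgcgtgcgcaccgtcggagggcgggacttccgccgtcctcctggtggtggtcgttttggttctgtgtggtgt
ZNF300, chr5:150904931-150905230, minus strand: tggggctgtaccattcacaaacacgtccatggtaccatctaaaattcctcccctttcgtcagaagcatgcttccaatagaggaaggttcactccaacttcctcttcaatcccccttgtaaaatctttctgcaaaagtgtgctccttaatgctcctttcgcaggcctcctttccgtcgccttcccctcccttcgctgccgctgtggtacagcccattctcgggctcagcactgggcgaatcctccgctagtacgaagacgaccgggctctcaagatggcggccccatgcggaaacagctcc
The promoter of ZNF300 held no match. Of all 16 genes that rose in both rescues, 14 had a promoter entry, and 7 of these held the core. Both strands were searched. The ETS core lay in 74 of 170 ZNF promoters (43.5%) and in 13.9% of 15673 other protein-coding promoters of the same length. ACTACAA, a core of the site of the activator ZNF143, lay in 8.24% of ZNF promoters and 3.09% of the others, and TATAAA in 2.94% and 9.7%. The heat shock element (GAANNTTC or TTCNNGAA) lay in 12.4% of ZNF promoters and 11.4% of the others, the antioxidant element (TGACNNNGC) in 12.4% and 14.3%, the metal element (TGCACNC or TGCGCNC) in 40.6% and 34.7%, and the AP-1 site TGACTCA in 2.35% and 3.68%. An AP-1 site followed by GC also matches the antioxidant element. Among genes that rose with arsenite in WT-rescue, 24 of 52 promoters (46.2%) held the ETS core, and 50 of the remaining 118 (42.4%) did. In the same split, the ZNF143 core lay in 11.5% of the promoters of genes that rose and 6.78% of the remaining ones, the heat shock element in 13.5% and 11.9%, the antioxidant element in 17.3% and 10.2%, and the metal element in 36.5% and 42.4%. The AP-1 site lay in 2 and 2 promoters, and TATAAA in 0 and 5. These counts are small and were not tested.

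The highest base means in the authors' deposited table used for the choice were 2764.6 for ZNF609, a partner of the cohesin loader, 2492.7 for its relative ZNF608 and 2465.9 for ZNF638, an RNA-binding nuclear protein. Just inside the limit lay ZNF557 at 204.6, ZNF41 at 205.4 and ZNF256 at 205.7. Just outside it lay ZNF354C at 199.3, ZNF239 at 197.0 and ZNF184 at 196.9. Base means are not divided by transcript length, so they do not order genes by RNA molecules.

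The targeted genes were lower in KO than in WT cells of the first experiment in the authors' deposited table, with log2 fold changes of -0.56 for G3BP1 and -0.36 for G3BP2. G3BP1 stood at 7.31 in WT-rescue and 7.75 in NTF2-rescue over KO. Normalised gene reads per library averaged 12170926 in the RIP, 44217175 to 46949956 over the tables of the first experiment and 11990915 to 17893716 over those of the second. Size factors of the second experiment ran from 0.815 to 1.010, apart from 1.733 and 1.198 in arsenite-treated WT-rescue. In the authors' deposited table of arsenite in KO cells the mesenchymal gene VIM had a base mean of 13573.0, the bone gene SPARC 15618.3 and RUNX2 200.5, while COL1A2 was near 0, at 5.6. The leukocyte gene PTPRC stood at 2.6, the T cell gene CD3E at 0.0 and the epithelial gene EPCAM at 83.3. In the RIP table, the kidney gene PAX2 had a base mean of 45.8 and the neurofilament genes NEFL and NEFM 1078.5 and 4.9.

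Whole reads per library were worked back from the U2OS base means, with 1 solution for each of the 199 genes. They are printed as normalised reads, on 1 scale within each experiment. Tests are the authors' DESeq2 tests at an adjusted p under 0.05, and their log2 fold changes were shrunk toward 0 by an amount that differs between tables.

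**Figure D1:**
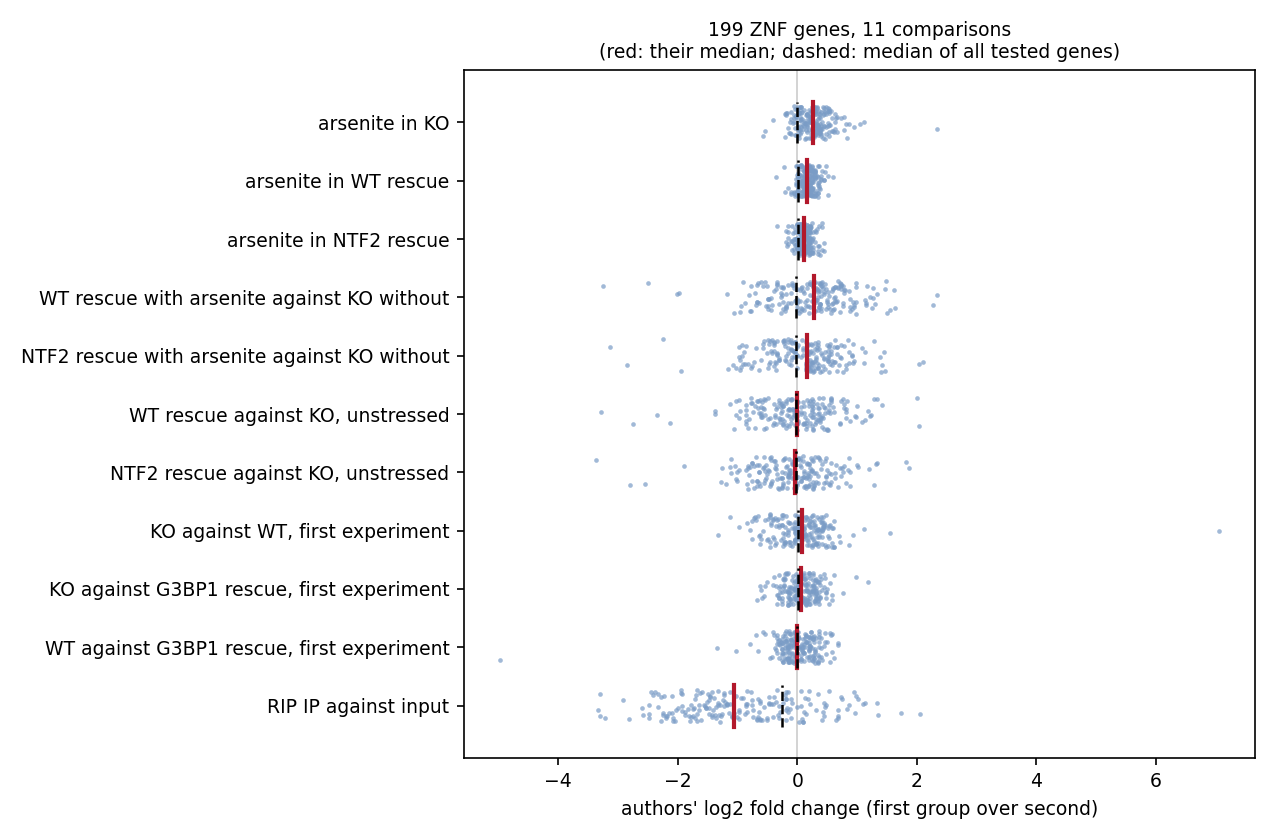
Authors' log2 fold changes of the 199 ZNF genes (points) in the 11 comparisons, with their median (red bar) and the median of all tested genes (dashed bar). The ZNF median is 0.27, 0.16 and 0.11 in the arsenite comparisons in KO, WT-rescue and NTF2-rescue, and -1.07 in the RIP.

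With arsenite, many ZNF transcripts rose in rescued cells and few fell. In WT-rescue the authors' deposited table called 61 of 199 ZNF genes higher (30.7%) and 2 lower (1.01%), against 8.18% and 12.2% of all tested genes. Among 8775 other tested genes at the same base mean limit, 10.7% were higher and 16.8% lower. The median was 0.16 in ZNF genes and 0.01 in all tested genes. In NTF2-rescue the authors' deposited table called 17 of 198 higher (8.59%) and 1 lower (0.505%), against 2.43% and 6.14%. There the medians were 0.11 and 0.01. The limit used treated as well as untreated KO libraries, so it favours genes that rise with arsenite in KO cells. Over the members, that response had a Spearman correlation of 0.563 with the one in WT-rescue and 0.577 with the one in NTF2-rescue. How much the choice of genes adds to these counts was not tested. The rescues share no libraries, and 16 genes rose in both, which is 26.2% of the WT-rescue list and 94.1% of the NTF2-rescue list. The same overlap was not worked out for other genes, so these shares are not read as a trait of ZNF genes. In bulk libraries, more responding cells and more RNA per cell cannot be told apart.

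ZNF432, a KRAB zinc finger gene, rose in both rescues. It held 235.1 and 285.0 normalised reads in WT-rescue and 383.6 and 402.5 with arsenite. In NTF2-rescue it held 200.5 and 210.1, and 300.1 and 326.6 with arsenite. Treated libraries lay above untreated ones in each rescue. For ZNF432 the authors' deposited tables gave 0.51 (SE 0.12, adjusted p 1.30e-04, DESeq2) and 0.42 (SE 0.13, adjusted p 0.0166) on the log2 scale. ZNF473, which takes part in 3' end processing of histone messages, held 465.3 and 487.4 in WT-rescue and 629.6 and 648.4 with arsenite. In NTF2-rescue it went from 290.4 and 335.8 to 447.3 and 492.6. Both changes of ZNF473 were called, at 0.38 and 0.44 in the authors' deposited tables.

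The largest fold change in WT-rescue was that of ZNF92, another KRAB gene. It held 177.0 and 194.9 normalised reads without and 301.4 and 306.3 with arsenite, and the authors' deposited table gave 0.60 (SE 0.13, adjusted p 3.22e-05, DESeq2). In NTF2-rescue ZNF92 held 205.0 and 239.5, and 254.3 and 280.1 with arsenite, which was not called (0.18 in the authors' deposited table, adjusted p 0.575, DESeq2). ZNF394 went from 357.8 and 399.6 to 564.8 and 572.8 in WT-rescue (0.52 in the authors' deposited table, adjusted p 1.27e-06, DESeq2). In NTF2-rescue ZNF189 led, from 192.6 and 192.9 to 290.2 and 317.7 (0.45 in the authors' deposited table, adjusted p 0.0096, DESeq2), and it was also called in WT-rescue, at 0.35.

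ZNF785 and ZNF367 were the genes that fell in WT-rescue. ZNF785 went from 203.0 and 209.3 to 152.0 and 158.1 normalised reads (-0.36 in the authors' deposited table, adjusted p 0.0463, DESeq2). ZNF367 went from 679.0 and 730.5 to 600.4 and 614.4 (-0.22 in the authors' deposited table, adjusted p 0.0381, DESeq2). It was also the gene that fell in NTF2-rescue, from 635.5 and 668.6 to 490.9 and 492.6 (-0.34 in the authors' deposited table).

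Among members with known roles, ZNF281 and ZNF148, relatives that bind GC-rich promoters, rose in both rescues. ZNF281 went from 1122.0 and 1128.4 to 1396.9 and 1400.1 normalised reads in WT-rescue (0.29 in the authors' deposited table), and ZNF148 from 1226.7 and 1248.8 to 1398.6 and 1429.0 (0.17). ZNF644, which works with the histone methyltransferases G9a and GLP, was called in both, at 0.16 and 0.25 in the authors' deposited tables, as was the SUMO ligase gene ZNF451, at 0.25 and 0.21. ZNF316 had the smallest adjusted p of all members in WT-rescue (1.22e-15, DESeq2), with 3109.0 and 3262.5 normalised reads without and 4093.1 and 4220.0 with arsenite.

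Of 8 members that act on RNA or ribosomes, 1 was called higher in WT-rescue, ZNF106 at 0.12 in the authors' deposited table, and 0 in NTF2-rescue. ZNF598, the ubiquitin ligase that detects collided ribosomes, went from 3276.0 and 3510.2 to 3613.1 and 3633.8 normalised reads in WT-rescue and was not called (0.07 in the authors' deposited table, adjusted p 0.262, DESeq2). Of 8 chromatin and transcription partners, 2 were called higher in WT-rescue and 2 in NTF2-rescue. Of 8 well studied activators and repressors, 4 and 3 were, with medians of 0.17 and 0.10. Among all tested ZNF genes 30.7% and 8.59% were called higher. With 8 genes in each list, no contrast between the lists is read.

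The KRAB list of corepressors includes ZNF274, which is also a member. Of its 19 tested genes, 5 were called higher with arsenite in WT-rescue (26.3%) and 0 lower, against 8.18% and 12.2% of all tested genes. They included TRIM28, at 0.15 in the authors' deposited table, and MPHOSPH8, a subunit of the silencing complex HUSH, at 0.39. In NTF2-rescue 0 were higher and 1, the DNA methyltransferase gene DNMT1, was lower, at -0.15 in the authors' deposited table. SETDB1 was not called in either, at 0.11 and -0.05. In related families, 8 of 28 ZBTB genes (28.6%) and 7 of 13 ZSCAN and ZKSCAN genes (53.8%) were called higher in WT-rescue, and 0 of either lower. Of ZNF genes under the expression limit, 18 of 199 tested were called higher (9.05%), near the share of all tested genes, and 0 lower. Their median was nevertheless 0.19, beside 0.16 in the members, with a larger median standard error (0.17 against 0.10). In NTF2-rescue the medians were 0.11 and 0.11. The rise was thus not particular to genes above the limit.

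**Figure D2:**
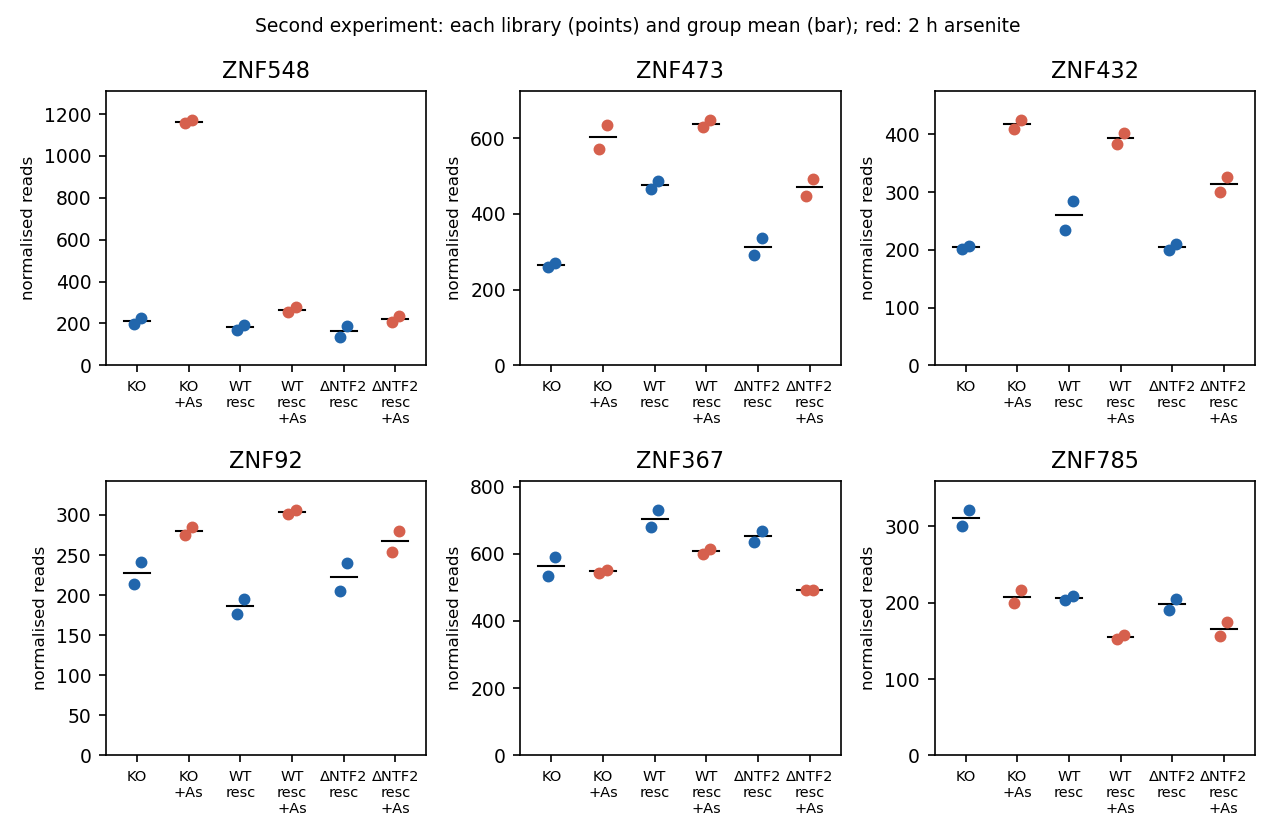
Normalised reads of 6 ZNF genes in each library of the second experiment (points, 2 per group) with the group mean (bar), without (blue) and with (red) arsenite; KO, knockout; WT resc, WT-rescue; ΔNTF2 resc, NTF2-rescue. ZNF548 is at 1154.7 and 1171.6 in treated KO cells, through which it passed the limit, and far lower in every other group. ZNF432 is higher with arsenite in all 3 backgrounds.

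In KO cells the arsenite response is the contrast that chose the genes, so it is described without a test. The authors' deposited table called 63 of 199 ZNF genes higher and 3 lower, beside 8.56% and 10.9% of all tested genes, and nothing is read from that count. ZNF548, a KRAB zinc finger gene, stood far from the others. It held 198.7 and 225.8 normalised reads without and 1154.7 and 1171.6 with arsenite (2.34 on the log2 scale in the authors' deposited table). In WT-rescue ZNF548 held 167.0 and 194.9, and 253.3 and 276.4 with arsenite (0.45 in the authors' deposited table, SE 0.13, adjusted p 0.00544, DESeq2). In NTF2-rescue it held 137.0 and 187.5, and 209.4 and 235.6 with arsenite, which was not called (0.27, adjusted p 0.277, DESeq2). Next came ZNF473, from 260.2 and 270.3 to 570.9 and 635.8 (1.11 in the authors' deposited table), and ZNF850, from 186.6 and 205.2 to 424.9 and 441.5 (1.05). In WT-rescue ZNF850 was not called, at 0.14. On the scale used for the limit, ZNF548 and ZNF850 passed only through the treated KO libraries, where they are high. So did other members, such as ZNF557, with 153 and 132 reads before normalisation in untreated KO libraries and 285 and 264 in treated ones. The place of ZNF548 and ZNF850 among the largest changes is thus given as a description. ZNF185, which despite its symbol encodes a LIM domain protein, was the lowest, from 1083.8 and 1100.9 to 705.7 and 733.9 (-0.58 in the authors' deposited table), with ZNF785 at -0.53 and ZNF519 at -0.41.

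The difference between both rescues in arsenite response was tested per gene, as the WT-rescue minus the NTF2-rescue log2 fold change over its combined standard error. Of 15865 genes, 52 (0.328%) were called after Benjamini-Hochberg adjustment. Of the 199 ZNF genes 0 were called, and 2 had an unadjusted p under 0.05 (1.01%, against 4.04% of all genes). ZNF92 differed by 0.42 (95% interval 0.06 to 0.78, adjusted p 0.962 over all genes, normal test with DESeq2 errors) and ZNF664 by 0.17 (0.01 to 0.34). The difference was above 0 in 138 of 199 ZNF genes (69.3%), with a median of 0.052, and in 47.8% of all genes, with a median of -0.007. The treated WT-rescue libraries were the deepest of the experiment, and the part of depth in the count of calls was not tested.

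ZNF genes differed in both directions between rescued and KO cells without stress. In WT-rescue over KO the authors' deposited table called 55 higher (27.6%) and 57 lower (28.6%), against 23.0% and 19.1% of all tested genes. In NTF2-rescue over KO it called 45 (22.6%) and 57 (28.6%), against 22.8% and 18.7%. Other genes at the same limit were called higher in 42.6% and 42.4%, and lower in 26% and 25.6%, in the same order. Centred on the table's median over expressed genes, 0.18 and 0.17, the splits were 36 higher and 72 lower, and 30 and 76. Before centring the ZNF medians were -0.01 and -0.03, and those of other genes at the same limit 0.17 and 0.16. These comparisons and the choice of genes use the same KO libraries, and the limit on KO libraries, untreated and treated, favours genes high in KO cells.

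ZNF608, the relative of ZNF609, was the lowest. KO libraries held 2416.8 and 2556.7 normalised reads, WT-rescue 253.8 and 255.7 and NTF2-rescue 220.0 and 253.4. The rescue libraries lay far under the KO libraries, at -3.28 (SE 0.11) and -3.37 (SE 0.11) in the authors' deposited tables. ZNF362 held 261.6 and 266.4 in KO cells, 34.5 and 36.7 in WT-rescue and 28.8 and 39.0 in NTF2-rescue (-2.74 and -2.79 in the authors' deposited tables). ZNF503, a corepressor of the NET family, held 1328.8 and 1422.6, 255.7 and 281.6 and 213.5 and 247.2 in the same order (-2.35 and -2.55 in the authors' deposited tables). At the other end stood ZNF778, with 368.0 and 387.9 in KO cells, 1575.6 and 1598.5 in WT-rescue and 1383.9 and 1420.3 in NTF2-rescue (2.03 and 1.87 in the authors' deposited tables). ZNF697 held 929.3 and 945.1, 3764.8 and 3865.9 and 3328.0 and 3335.1 (2.00 and 1.82 in the authors' deposited tables).

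Of the 8 members that act on RNA or ribosomes, 5 were higher and 1 lower in WT-rescue, and 5 and 1 in NTF2-rescue. Higher were 27.6% and 22.6% of all ZNF members, and 42.6% and 42.4% of other genes at the same limit. Lower were 28.6% and 28.6%, and 26% and 25.6%. With 8 genes, nothing is read from these counts. ZNF622, which helps to mature the large ribosomal subunit, held 406.0 and 499.6 normalised reads in KO cells, 1232.8 and 1245.6 in WT-rescue and 1104.3 and 1121.7 in NTF2-rescue (1.42 and 1.28 in the authors' deposited tables). ZNF598 was at 1.33 and 1.31 in the authors' deposited tables, and ZNF207, a spindle and splicing factor, at 0.52 and 0.55. ZNF638 was the lower one, at -0.27 and -0.25. Of the corepressors, 8 (42.1%) were higher and 5 (26.3%) lower in WT-rescue, near the 42.6% and 26% of other genes at the same limit, with TRIM28 at 0.50 and the heterochromatin protein gene CBX5 at -1.08 in the authors' deposited table.

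The difference between unstressed rescues was tested the same way. Of 16210 genes, 3 (0.0185%) were called and 0 ZNF genes were, with 1 at an unadjusted p under 0.05 (0.503%, against 0.716% of all genes). That was ZNF473, whose difference was 0.58 (95% interval 0.08 to 1.07). Both tables share the KO libraries, which makes this test conservative. Treated rescues were also compared with untreated KO cells, which joins rescue and stress. With WT G3BP1 the authors' deposited table called 91 higher (45.7%) and 42 lower (21.1%), against 25.1% and 19.8% of all tested genes. With the NTF2 deletion it called 65 (32.7%) and 45 (22.6%), against 23.3% and 19.6%. Among other genes at the same limit the shares were 47.5% and 27.1% with WT G3BP1, and 44.2% and 27.3% with the deletion. Centring by 0.22 and 0.19 gave 59 higher and 60 lower, and 46 and 66. ZNF408 ranked behind ZNF697 and ZNF778 with WT G3BP1, at 1.63 in the authors' deposited table. The 5 genes ZNF316, ZNF451, ZNF131, ZNF697 and ZNF267 were called higher in all 6 comparisons of the second experiment that involve a rescue, which share libraries, and 0 were called lower in all 6.

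In the first experiment the authors' deposited table called 72 of 199 ZNF genes higher in KO than WT cells and 48 lower, against 18.4% and 19.4% of all tested genes. The ZNF shares were 36.2% and 24.1%, and those of other genes at the same limit 32.1% and 30.6%. The limit was set in KO libraries and so favours genes high in KO cells. ZNF genes under the limit were called higher in 10.6% and lower in 28.5%, and with a limit of 100 the ZNF split was 81 higher and 72 lower. ZNF300 differed most, and it passed the limit only through KO cells, where it is high. WT libraries held 3.1 and 4.2 normalised reads, KO libraries 1396.9 and 1464.0 and rescue libraries 570.2 and 663.9. It was nearly silent in WT cells and present in every library made from KO cells, at 7.05 in the authors' deposited table, which is given as a description. In the second experiment, where all libraries derive from KO cells, ZNF300 held 402.6 and 472.3 in untreated KO cells.

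ZNF213 held 581.4 and 626.3 normalised reads in WT cells, 1791.7 and 1813.0 in KO cells and 1538.3 and 1604.5 after rescue (1.55 for KO over WT in the authors' deposited table). ZNF736 held 537.6 and 615.9, 1258.0 and 1276.5 and 609.3 and 652.5 in the same order, so that WT and rescue overlapped (1.11 in the authors' deposited table). Lower in KO cells were ZNF347, with 1685.2 and 1788.2 in WT, 668.4 and 702.2 in KO and 1041.0 and 1084.0 in rescued cells (-1.33 in the authors' deposited table), and ZNF544, with 2248.8 and 2272.7, 1034.5 and 1036.6 and 1499.3 and 1660.8 (-1.12). For both, rescued cells lay between KO and WT cells. ZNF274, which brings SETDB1 to the 3' ends of ZNF genes, held 1767.4 and 1887.8 in WT and 1021.6 and 1081.8 in KO cells and was called lower, at -0.79 in the authors' deposited table.

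**Figure D3:**
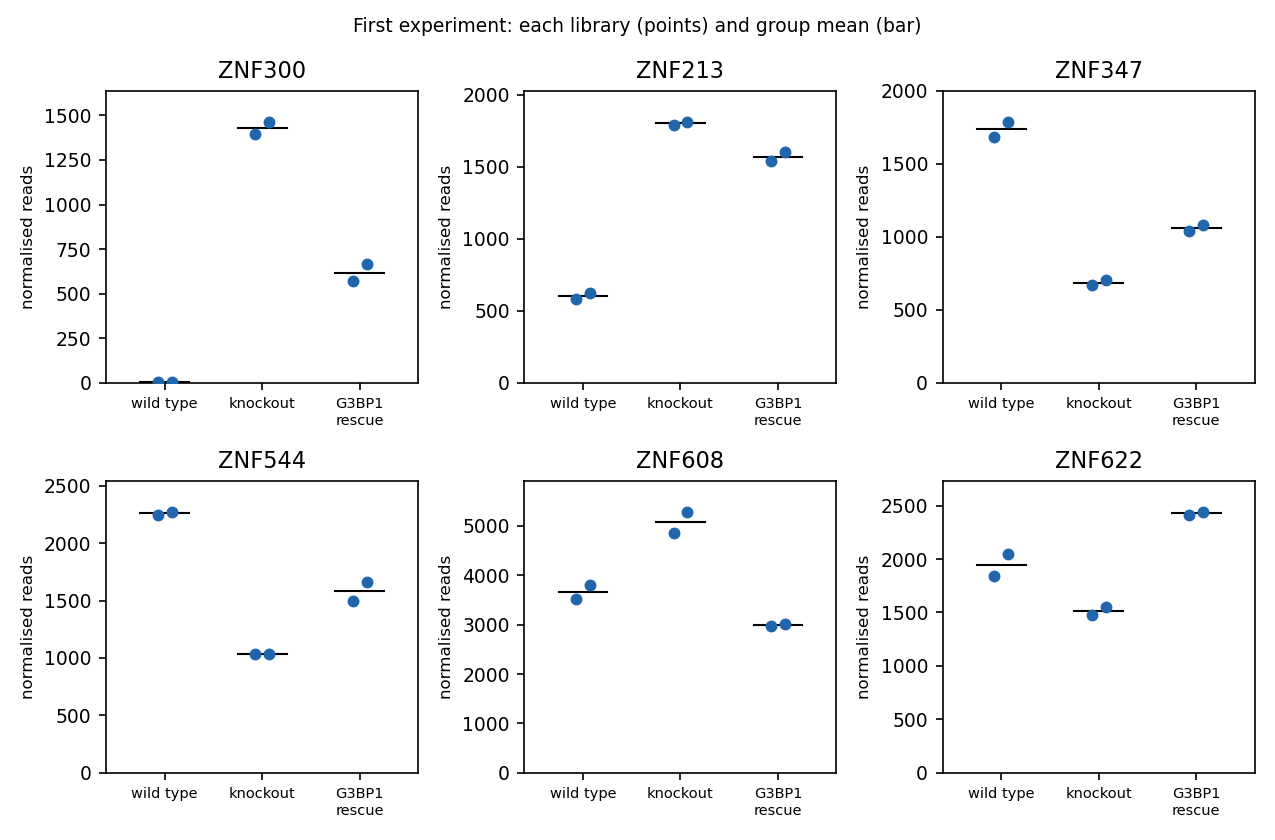
Normalised reads of 6 ZNF genes in each library of the first experiment (points, 2 per group) with the group mean (bar), on a linear axis from 0. ZNF300 is at 3.1 and 4.2 in WT cells, and ZNF608 is lower and ZNF622 higher in rescue than in KO cells.

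KO against rescue in the first experiment gave 61 ZNF genes higher in KO cells (30.7%) and 32 lower (16.1%) in the authors' deposited table. The shares were 16.1% and 21.5% of all tested genes, and 25.8% and 38.2% of other genes at the same limit. After centring on -0.05 the split was 73 and 22. Here too the limit, set in KO libraries, favours genes high in KO cells. ZNF300 (1.18), ZNF736 (0.98) and ZNF608 (0.76) had the highest values in the authors' deposited table, and ZNF622 (-0.67), ZNF778 (-0.63) and ZNF347 (-0.61) lowest. WT against rescue gave 54 higher in WT cells (27.1%) and 40 lower (20.1%), against 15.2% and 20.4% of all tested genes. Of other genes at the same limit 21.7% were higher and 39.4% lower. After centring on -0.04 the ZNF split was 65 and 30. There ZNF320 (0.69), ZNF347 (0.69) and ZNF274 (0.62) had the highest values in the authors' deposited table, and ZNF300 (-4.97), ZNF213 (-1.34) and ZNF697 (-1.03) lowest. These comparisons share libraries in pairs.

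Rescue was measured against KO in both experiments, on separate libraries. Of the 61 ZNF genes higher in KO cells than after rescue in the first, 37 (60.7%) were lower in WT-rescue than KO in the second, 64.9% of the 57 on that list, and 2 went the other way. Of the 32 lower in KO cells, 17 (53.1%) were higher in WT-rescue, 30.9% of the 55 on that list, and 3 went the other way. Among other genes at the same limit these shares of the first experiment's lists were 62.1% and 71%. ZNF608 was lower after rescue in both, with 4853.1 and 5284.9 normalised reads in KO and 2971.9 and 3015.1 in rescued cells of the first experiment, a smaller gap than in the second. ZNF300, lower after rescue in the first, was not called in WT-rescue over KO (-0.13 in the authors' deposited table, adjusted p 0.597, DESeq2).

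**Figure D4:**
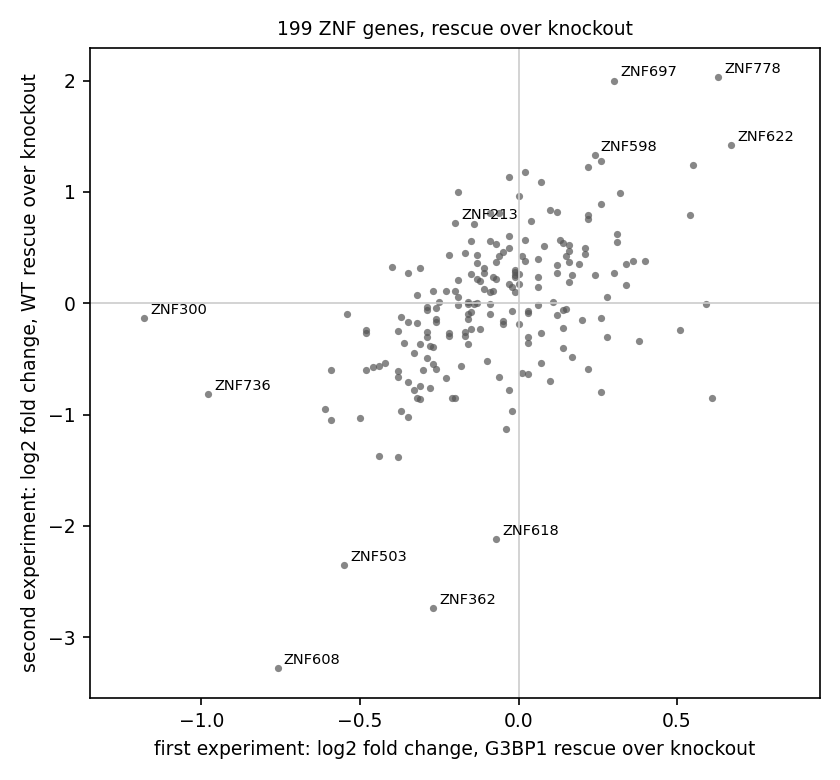
Authors' log2 fold change of each of the 199 ZNF genes for rescue over KO in the first experiment (x axis, sign of the deposited value turned) and WT-rescue over KO in the second (y axis). ZNF608 is low and ZNF778 and ZNF622 high on both axes, while ZNF300 is at the far left and near 0 on the y axis.

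ZNF transcripts were mostly depleted from the G3BP1 RIP. Of 196 tested ZNF genes, the authors' deposited table called 138 lower in IP than in input (70.4%) and 27 higher (13.8%), against 31.4% and 24.7% of all tested genes. Other genes at the same limit were called lower in 41.2% and higher in 40.6%. The median was -1.07 in ZNF genes, -0.26 in all tested genes and -0.02 in the other genes at the limit. Values per RIP library were not recovered, so each is an estimate over 3 IP and 3 input libraries, from unstressed cells of another line.

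ZNF37A was the lowest, at -3.33 (SE 0.15, adjusted p 1.26e-105, DESeq2) in the authors' deposited table, followed by ZNF106 at -3.30 and ZNF462, a regulator of chromatin, at -3.29. ZNF609 and ZNF638 were also lower, at -2.24 and -2.23. The genes higher in IP were led by ZNF32, at 2.05 (SE 0.15, adjusted p 7.62e-42, DESeq2), ZNF428, at 1.73, and ZNF771, at 1.35 in the authors' deposited table. ZNF622 was higher too, at 0.95, as was ZNF143 at 0.44. ZNF598 was not called (-0.15). Of 8 chromatin and transcription partners 7 were lower and 0 higher, and of 8 that act on RNA or ribosomes 4 were lower and 2 higher. Among all tested ZNF genes 70.4% were lower and 13.8% higher. With 8 genes in each list, no contrast between the lists is read. Reads of near-identical copies, such as ZNF587 and ZNF587B or ZNF33A and ZNF33B, may be split or lost in counting, and overlapping or antisense genes cannot be separated where the counting strand is not stated.

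Depletion was larger in longer genes. Over 194 ZNF genes with a RefSeq entry, the RIP log2 fold change and log2 annotated gene length, introns included, had a Spearman correlation of -0.422, and over 8231 other genes at the same limit one of -0.543. Genes of 1 table share its libraries and are not independent replicates. The 65 shortest ZNF genes (2469 to 17712 bases) had a median of -0.30, the 64 of middle length -1.24 and the 65 longest (33338 to 467802 bases) -1.50. Other genes split at the same lengths had medians of 0.81, 0.32 and -0.71. They ran from 207 to 2173362 bases, so their shortest and longest groups are not matched in length to the ZNF genes. Of the corepressors 14 of 19 (73.7%) were lower, with a median of -1.14, and of ZBTB genes 17 of 28 (60.7%), with a median of -0.77. Lower were 31.4% of all tested genes and 41.2% of other genes at the same limit.

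**Figure D5:**
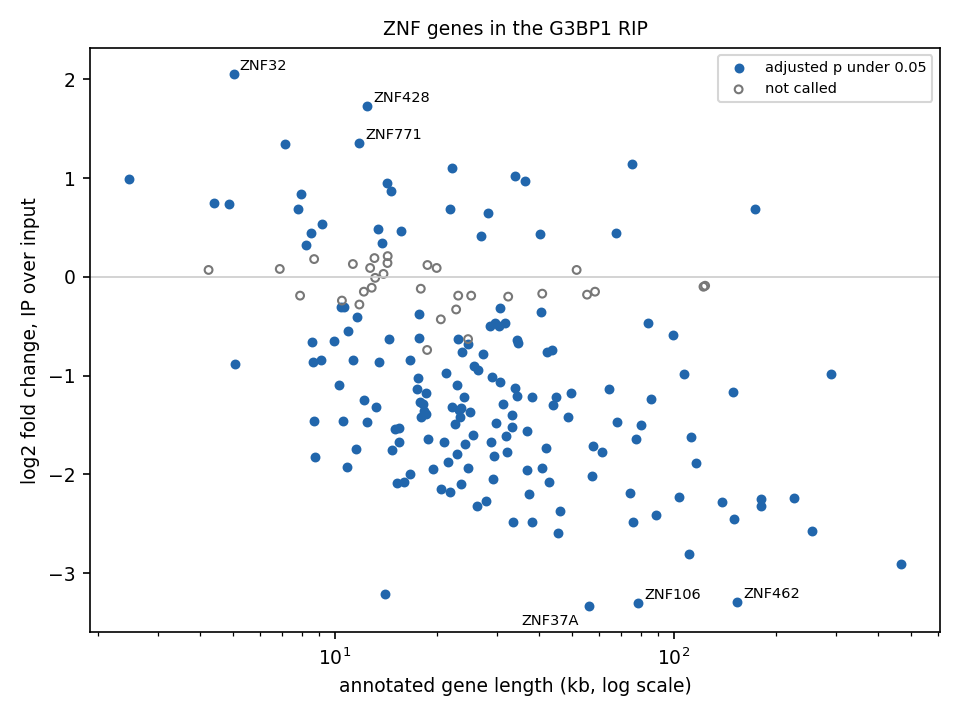
RIP log2 fold change, IP over input, of 194 ZNF genes against annotated gene length (log axis), filled where called by the authors and open where not. Most points lie under 0, and ZNF32, ZNF428 and ZNF771 are the highest.

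Many of the genes are neighbours. In the RefSeq order of protein-coding genes, 99 of the 197 matched ZNF genes had another member close by, with at most 3 genes between them, and 50 lay in 9 runs of at least 4. The runs named were picked after their values were seen, so their counts are no sign that runs differ from other members. Of all tested members, 36.2% were higher in KO than WT cells, 30.7% rose with arsenite in WT-rescue, 28.6% were lower in WT-rescue than KO, and 13.8% were higher and 70.4% lower in the RIP. In the run ZNF48, ZNF771, ZNF768, ZNF785 and ZNF689, 5 of 5 genes were higher in KO than WT cells, with a median of 0.53, and 4 were higher in the RIP. The run that holds ZNF548, from ZNF264 to ZNF749, had 6 of 7 higher in KO than WT cells and 6 lower in the RIP, and 3 rose with arsenite in WT-rescue. In the run ZNF248, ZNF33A, ZNF37A and ZNF33B, 3 of 4 were lower in WT-rescue than KO, with a median of -0.93.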

How the data were processed

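The 11 tables hold the authors' own DESeq2 comparisons of 24 libraries; 48 other libraries were not analysed here. Libraries were poly-A RNA, directional, per the labels' protocols. Tools were STAR 2.7.0f or 1.5.3 and DESeq2 2.11.40.6, per the submitters' processing notes. The genome build, annotation and counting strand are not given in the sources used here.

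The deposited base mean is a signal, reads divided by size factors and averaged over a table's libraries. The deposited fold changes and standard errors are on the log2 scale, first group over second. The deposited Wald statistic is a score, and the deposited p-value and adjusted p-value are the authors'. Summary lines that name no gene were removed.

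Members, lists and tests were chosen with earlier results of these data known. Calls use an adjusted p under 0.05. Named genes are the 3 highest and 3 lowest called members of each comparison (of all members for arsenite in KO cells), 11 well studied members, genes next to the limit and genes in the difference tests; others were chosen after their values were seen. Classes by protein domain were not used here. Differences were tested with a normal test over genes with base means of at least 10 in both tables. Whole reads were solved from base means of tables with 2 libraries per group and used as descriptions. The read recovery and the difference tests were tested on data with known answers. For the difference tests, 200 genes were given a log2 change of 1, and 99.5% (arsenite) and 89% (unstressed) of them were called. Errors were drawn independently, although the unstressed tables share KO libraries. Smaller changes, such as the differences printed for ZNF genes, were not tried. The made-up changes were not shrunk, while the authors' fold changes were, so these shares may not hold for the deposited values. Other thresholds, limits, centring and left-out libraries were tried. Python 3.11.15, pandas 2.3.3, scipy 1.17.1 and statsmodels 0.14.6 were used.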

Additional observations from a re-analysis of the deposited data

Results flagged for a closer look

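Of 46 named genes, 1 moved in opposite directions with arsenite in both rescues, every treated library lying on 1 side. ZNF143, an activator at many promoters, held 355.1 and 356.6 normalised reads in WT-rescue and 374.1 and 444.8 with arsenite. In NTF2-rescue it held 358.4 and 377.1, and 336.0 and 343.4 with arsenite. For ZNF143 the authors' deposited tables gave 0.17 (adjusted p 0.313, DESeq2) and -0.09 (adjusted p 0.82, DESeq2), neither called. The library pattern itself was not tested, and the test of the difference over all genes called 0 ZNF genes.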

How the results depend on the processing

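Centring each table on its median, or a base mean limit of 100, kept all 11 counts of called ZNF genes within 1.5 times. The limit of 100 is passed by 293 genes, so similar counts are not similar shares. Centring did move the split by direction, as from 91 higher and 42 lower to 59 and 60 for treated WT-rescue over untreated KO. An absolute log2 fold change of at least 0.5 left 37 genes for KO over WT, 16 for KO over rescue and 17 for WT over rescue in the first experiment, and 35, 3 and 0 for arsenite in KO, WT-rescue and NTF2-rescue, where the authors' DESeq2 called 66, 63 and 18. At an adjusted p under 0.01 the last 2 counts were 36 and 8. With a limit of 400, which 95 genes pass, fewer genes were counted: 81 in the RIP, 63, 51 and 48 in the first experiment, 37 and 38 for arsenite in KO and WT-rescue, 64 and 56 for WT-rescue and NTF2-rescue over KO, and 70 and 64 for these with arsenite. Medians of log2 ratios of recovered reads were 0.18 and 0.13 for arsenite in WT-rescue and NTF2-rescue, and 0.16 and 0.11 with the authors' shrunken values. Leaving out 1 library at a time, medians ran from 0.17 to 0.19 and 0.12 to 0.15 for these, 0.25 to 0.31 for arsenite in KO, 0.08 to 0.09 for KO over WT, 0.06 to 0.09 for KO over rescue, -0.03 to 0.01 for WT over rescue, -0.05 to 0.03 and -0.06 to -0.01 for WT-rescue and NTF2-rescue over KO, and 0.22 to 0.30 and 0.14 to 0.16 for these with arsenite. The sign of the median for WT over rescue and for WT-rescue over KO thus depends on single libraries. Apart from the smaller gene list, the cause of these shifts was not tested. The difference tests called 0 ZNF genes under every base mean filter tried and after centring. No paired analysis was possible because the tables carry no replicate numbers, so the fit with a replicate block was not run.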
